A study of Mus musculus with 24 samples.

Results

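The 2-cell embryo and the germinal vesicle (GV) oocyte of wild-type mice were compared by RNA sequencing, with 3 libraries of 2-cell embryos and 3 libraries of GV oocytes. These 6 of the 24 libraries of the study were chosen by their labelled stage and genotype, and no measured value entered the choice. The other 18 libraries were wild-type metaphase II (MII) oocytes and late pronuclear (PN5) zygotes and Nlrp14 knockout oocytes and embryos at all 4 stages, used here where named. Each library held RNA of 5 oocytes or embryos, pooled, and the libraries of a group were labelled as biological replicates. Nothing said whether the pools came from separate females, so a p-value here speaks of the spread among the libraries, which may be technical. The sources used here do not give the strain, the age and treatment of the females, the hours of collection, the genotype of the males or the knockout allele.

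The GV oocyte is the fully grown oocyte, held in prophase of the first meiotic division, whose RNA was made and stored while it grew in the follicle. Transcription stops before maturation, so that meiosis, fertilisation and the first cleavage run on stored RNA, which is then removed while the embryo starts to transcribe its own genome. In the mouse the main burst of embryonic transcription falls in the 2-cell stage. The comparison thus sets a transcriptome made by the growing oocyte beside one that holds both leftover maternal RNA and new embryonic RNA, and the level of a gene does not say which of these it is. Levels are FPKM, fragment counts corrected for transcript length and library size, and they are relative to the total, so RNA lost from the whole cell does not show as such. In pooled cells, fewer cells with a transcript and less of it per cell cannot be told apart.

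Depth implied by the deposited values was 7.65 to 9.71 M fragments in the 2-cell libraries and 10.4 to 12.2 M in the GV libraries. A level of 1 FPKM was reached by 14128 to 14561 genes at the 2-cell stage, against 11546 to 11662 at GV. Genes of the mitochondrial genome took 23.6 to 30.7% of the summed FPKM in 2-cell libraries and 2.24 to 2.45% in GV libraries, and this share is given again where it touches a result. The oocyte marker Zp3 had 86.2, 61.1 and 54.0 FPKM in the 2-cell libraries, against 2061, 2309.8 and 1970.1 FPKM in the GV libraries. The 2-cell marker Zfp352 had 76.8, 66.5 and 73.6 FPKM in the 2-cell libraries, against 0.0245, 0 and 0 FPKM in the GV libraries. Both genes were higher at the stage they mark. Not every listed marker was: the oocyte marker Ddx4 rose and the 2-cell marker Tcstv1 fell, as given further on. Markers of other cells were low: of 24 granulosa and cumulus markers, 6 passed the filter on low values, and the list summed to 35.1 to 46.3 FPKM in 2-cell libraries and 60.7 to 72.2 FPKM in GV libraries. Amh, Fshr, Inha and Inhba were listed at 0 in all 2-cell libraries, and Ptx3, Areg, Ereg and Wt1 in all GV libraries. Of 18 sperm markers 5 passed, of which 2 rose, 2 fell and 1 was not called. The list summed to 26.8 to 41.7 FPKM at the 2-cell stage and 22.0 to 26.3 FPKM at GV. Tnp2, Acr, Gapdhs and Smcp were at 0 in all 6 libraries. Of 18 markers of blood, stroma and oviduct 6 passed, with sums of 106 to 191 FPKM in 2-cell libraries and 5.04 to 38.9 FPKM in GV libraries. That rise rested on Epcam and Hba-a1, described further on, while both adult beta-globins, Cdh5, Pax8 and Foxj1 were at 0 in all 6. The highest GV sum came from GV replicate 3, where the macrophage gene Lyz2 stood at 32.6 FPKM. The part of other cells in the results was not tested.

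Most of the transcriptome differed between the stages. Of 14503 genes tested, 10707 (73.8%) were called, that is, had an adjusted p under 0.05 in limma's test of log2(FPKM + 1). Of these 5944 rose in 2-cell embryos (41.0% of genes tested) and 4763 fell (32.8%). After the libraries were rescaled by the median of ratios, 6164 rose and 4583 fell of 14502 tested (74.1% called), and 5928 rises and 4580 falls were shared with the values as deposited. When each library was scaled to the same sum, more genes passed the filter on low values, and the falls outnumbered the rises: 6078 rose and 6345 fell of 18069 tested (68.8% called). On the deposited scale rises reached farther than falls: 414 genes rose and 142 fell by at least 16-fold, and 94 rose and 8 fell by at least 64-fold, on the log2(FPKM + 1) scale, which understates the change of low genes. The genes that fell took 12.7 to 14.4% of the summed FPKM in 2-cell libraries and 68.1 to 68.5% in GV libraries, and the genes that rose took 70.2 to 74.8% at the 2-cell stage and 14.4 to 14.7% at GV. Outside the mitochondrial genome the genes that rose still took 61.0 to 63.6% at the 2-cell stage and 12.5% at GV. The median log2 difference of all tested genes was 0.16, and 0.21 after median-of-ratios scaling, but -0.12 at equal sums, and 0.23 when the mitochondrial genes were left out of that sum. Group medians near 0 are given with their value at equal sums where the sign turned.

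**Figure D1:**
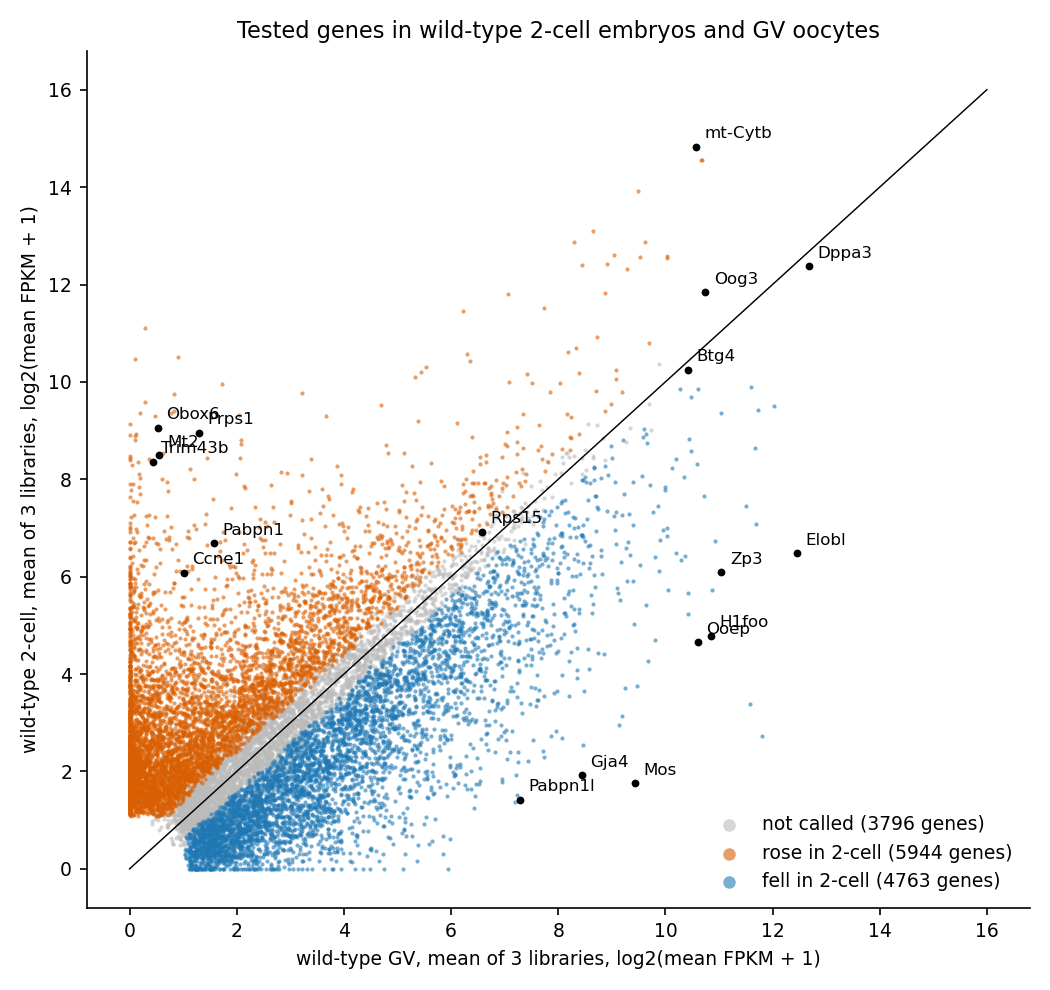
Mean level of each of the 14503 tested genes in 3 wild-type 2-cell libraries (vertical axis) and 3 wild-type GV libraries (horizontal axis), as log2(mean FPKM + 1), coloured by limma call, with the line of equal level. Orange points (5944 genes) lie above the line, blue points (4763 genes) below it, Dppa3 and Btg4 sit close to the line at the top, while Obox6 and Prps1 stand far above it and Mos and Gja4 far below.

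Among the 12 largest falls were RNAs of known oocyte proteins. Mos, the kinase that holds the mature egg in metaphase of the second division, had 2.40, 2.85 and 1.89 FPKM in the 2-cell libraries, against 661, 722 and 677 FPKM in the GV libraries (log2 difference -7.68, SE 0.15, adjusted p = 5.82e-08). Gja4 (connexin 37), the channel protein that joins the oocyte to its granulosa cells, had 3.21, 2.94 and 2.25 FPKM in the 2-cell libraries, against 347, 387 and 304 FPKM in the GV libraries (log2 difference -6.52, SE 0.17, adjusted p = 9.82e-08). H1foo, the oocyte linker histone, had 23.8, 29.5 and 26.6 FPKM in the 2-cell libraries, against 1853, 1863 and 1844 FPKM in the GV libraries (log2 difference -6.08, SE 0.13, adjusted p = 6.02e-08). In all 3 genes every 2-cell library lay far below every GV library, and the spread within a stage was small beside the gap. Elobl, an elongin B-like gene and the second most abundant nuclear coding RNA at GV, averaged 88.1 FPKM at the 2-cell stage and 5641 FPKM at GV, after 55.6 FPKM at MII and 498 FPKM at PN5 (log2 difference -5.99, SE 0.14, adjusted p = 6.35e-08). Ninj2, Fbxw26, Cpsf4l, Oas1h, Hist1h2bc and Fbxw21 were the others of the 12 largest falls, beside Ooep and Pabpn1l described with their groups, with log2 differences of -6.30 to -5.55 and no overlap between stages. Hist1h2bc was uneven at the 2-cell stage, at 1.66, 0.624 and 6.11 FPKM, against 148, 146 and 148 FPKM at GV. Over all genes tested, the 3 libraries of one stage lay wholly on one side of the other in 11338 genes (78.2%), so separation alone marks no gene out.

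Most tested genes of the oocyte's coat, its follicle signals and its own transcription factors fell. Beside every list that follows stand the 41.0% of all tested genes that rose and the 32.8% that fell, and the lists were not tested as sets. Of 12 tested genes of the zona pellucida and egg surface 10 fell (83.3%) and 1 rose, with a median log2 difference of -3.59. Zp1, Zp2 and Zp3, which form the zona, averaged 11.6, 18.4 and 67.1 FPKM at the 2-cell stage and 356, 813 and 2114 FPKM at GV (adjusted p 4.15e-06, 8.52e-08 and 5.32e-07). Izumo1r (Juno), the egg receptor for sperm, averaged 4.26 FPKM at the 2-cell stage and 151 FPKM at GV (log2 difference -4.86, adjusted p = 1.23e-07), and Astl (ovastacin), which hardens the zona after fertilisation, 0.761 FPKM at the 2-cell stage and 33.8 FPKM at GV (log2 difference -4.32, adjusted p = 4.36e-06). Cd9, needed for the fusion of sperm and egg, did not pass the test and had 143 FPKM at the 2-cell stage and 159 FPKM at GV, and Tssk6, a kinase of spermatids, was the 1 that rose (log2 difference 2.26, adjusted p = 0.0012). Of 11 tested signal genes 7 fell (63.6%) and 2 rose (median -1.14). Gdf9, the oocyte's growth factor for granulosa cells, had 57.0, 79.0 and 20.7 FPKM in the 2-cell libraries, against 1914, 1943 and 1773 FPKM in the GV libraries (log2 difference -5.33, SE 0.42, adjusted p = 1.63e-05). Its partner Bmp15 had 269 FPKM at the 2-cell stage and 752 FPKM at GV (log2 difference -1.55, adjusted p = 0.000973). The receptors Tgfbr1 and Bmpr2 rose, Tgfbr1 to 5.92 FPKM, against 0.720 FPKM at GV.

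Of 14 tested oocyte transcription factors 8 fell (57.1%) and 3 rose (median -1.22). Figla, the factor that switches on the zona genes, had 2.24, 1.60 and 1.63 FPKM in the 2-cell libraries, against 58.3, 54.0 and 66.2 FPKM in the GV libraries (log2 difference -4.42, SE 0.17, adjusted p = 4.86e-07). Nobox and Lhx8, homeodomain factors of follicle growth, averaged 5.82 and 4.43 FPKM at the 2-cell stage and 99.0 and 37.6 FPKM at GV (log2 differences -3.92 and -2.86, adjusted p 8.73e-06 and 1.29e-05). The stages did not overlap in any of these 3. Taf4b, Sp1 and Gata4 rose. Taf4b, a germline subunit of the general factor TFIID, had 21.1, 23.2 and 14.7 FPKM in the 2-cell libraries, against 1.74, 1.53 and 2.34 FPKM in the GV libraries (log2 difference 2.84, SE 0.21, adjusted p = 1.28e-05).

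The subcortical maternal complex, a protein assembly under the egg membrane that cleavage depends on, fell in all but 1 of its genes. Of its 8 listed genes, all tested, 7 fell and none rose (median -4.50). Its list summed to 447, 784 and 453 FPKM in the 2-cell libraries and to 4424, 4647 and 3946 FPKM in the GV libraries, without overlap. Ooep, a core member, had 17.7, 15.5 and 39.2 FPKM in the 2-cell libraries, against 1694, 1502 and 1469 FPKM in the GV libraries (log2 difference -6.07, SE 0.31, adjusted p = 2.13e-06). Padi6 averaged 36.6 FPKM at the 2-cell stage and 1374 FPKM at GV, Tle6 5.44 FPKM at the 2-cell stage and 267 FPKM at GV, Khdc3 3.19 FPKM at the 2-cell stage and 92.2 FPKM at GV, and Nlrp5 25.6 FPKM at the 2-cell stage and 187 FPKM at GV (log2 differences -5.21, -5.43, -4.52 and -2.86). Zbed3 was the exception, with 432 FPKM at the 2-cell stage and 617 FPKM at GV and no call (log2 difference -0.58, adjusted p = 0.0795). Of 12 tested oocyte Nlrp genes, which share 3 members with that complex, 10 fell and 1 rose (median -2.48). Nlrp14, among the 10 most abundant nuclear coding RNAs at GV, had 90.2, 129 and 99.0 FPKM in the 2-cell libraries, against 1876, 2014 and 1922 FPKM in the GV libraries (log2 difference -4.19, SE 0.16, adjusted p = 5.22e-07). Nlrp9c was not called, with 165 FPKM at the 2-cell stage and 187 FPKM at GV, and Nlrp4c rose from a low level, with 7.10 FPKM at the 2-cell stage and 4.60 FPKM at GV (log2 difference 0.54, adjusted p = 0.0148). Nlrp genes lie in clusters of similar copies, and the sources used here do not say how reads shared between copies were assigned.

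Genes that store maternal RNA and genes that remove it held members of both kinds, and the lists were not tested against each other. Of 17 tested storage genes 10 fell (58.8%) and 6 rose (35.3%), against 32.8 and 41.0% of all tested genes (median -0.99). Zar1 and Zar1l, RNA-binding proteins of the oocyte, averaged 3.56 and 31.9 FPKM at the 2-cell stage and 151 and 681 FPKM at GV (adjusted p 8.45e-07 and 9.03e-07). Cpeb1, which controls tail length during maturation, had 2.58, 3.66 and 2.63 FPKM in the 2-cell libraries, against 64.2, 71.6 and 57.2 FPKM in the GV libraries (log2 difference -4.05, SE 0.17, adjusted p = 8.35e-07). The helicase Ddx6 and the granule protein Lsm14a were among those that rose, Ddx6 to 7.87 FPKM, against 1.04 FPKM at GV. Of 27 tested clearance genes 14 rose (51.9%) and 9 fell (33.3%), the share of falls being close to that of all genes (median 0.74). The deadenylase subunits Cnot1, Cnot6, Cnot7, Cnot8 and Cnot10 rose while Cnot3, Cnot4, Cnot6l, Cnot9 and Cnot11 fell. Cnot6 had 8.01, 8.15 and 9.70 FPKM in the 2-cell libraries, against 1.94, 1.66 and 1.58 FPKM in the GV libraries (log2 difference 1.82, SE 0.16, adjusted p = 2.54e-05). Zfp36l2, which brings that complex to AU-rich RNAs, averaged 10.6 FPKM at the 2-cell stage and 0.659 FPKM at GV (log2 difference 2.78, adjusted p = 2.84e-05). Btg4, the oocyte adaptor of the complex, was among the most abundant RNAs at both stages and was not called, at 835, 1152 and 1664 FPKM in the 2-cell libraries, against 1373, 1337 and 1413 FPKM in the GV libraries (log2 difference -0.23, SE 0.23, adjusted p = 0.393). Its libraries overlapped between the stages. It was called as a fall at equal sums (adjusted p = 0.0307) and without 2-cell replicate 3 (adjusted p = 0.0263).

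Homeobox genes, metallothioneins and members of 2-cell gene families were among the 12 largest rises. Obox6, a homeobox gene of the preimplantation embryo, had 615, 554 and 427 FPKM in the 2-cell libraries, against 0.502, 0.516 and 0.306 FPKM in the GV libraries (log2 difference 8.52, SE 0.18, adjusted p = 6.02e-08). Mt2, a metal-binding metallothionein, had 379, 298 and 398 FPKM in the 2-cell libraries, against 0.578, 0.416 and 0.394 FPKM in the GV libraries (log2 difference 7.93, SE 0.16, adjusted p = 6.02e-08). Prps1, which makes the phosphoribosyl pyrophosphate that nucleotide synthesis starts from, had 514, 486 and 488 FPKM in the 2-cell libraries, against 1.42, 1.55 and 1.43 FPKM in the GV libraries (log2 difference 7.65, SE 0.13, adjusted p = 3.67e-08). In these 3 genes no GV library exceeded 1.55 FPKM and no 2-cell library fell short of 298 FPKM. Tsga8, Selenos, Gcsh, Rfpl4b, Mt1, Obox8, Trim43a, Trim43b and Usp17lb made up the rest of the 12 largest rises, with log2 differences of 7.05 to 7.92. Gcsh, a carrier protein of glycine breakdown, averaged 634 FPKM at the 2-cell stage and 3.12 FPKM at GV, and Selenos, a selenoprotein of the endoplasmic reticulum, 257 FPKM at the 2-cell stage and 0.524 FPKM at GV.

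**Figure D2:**
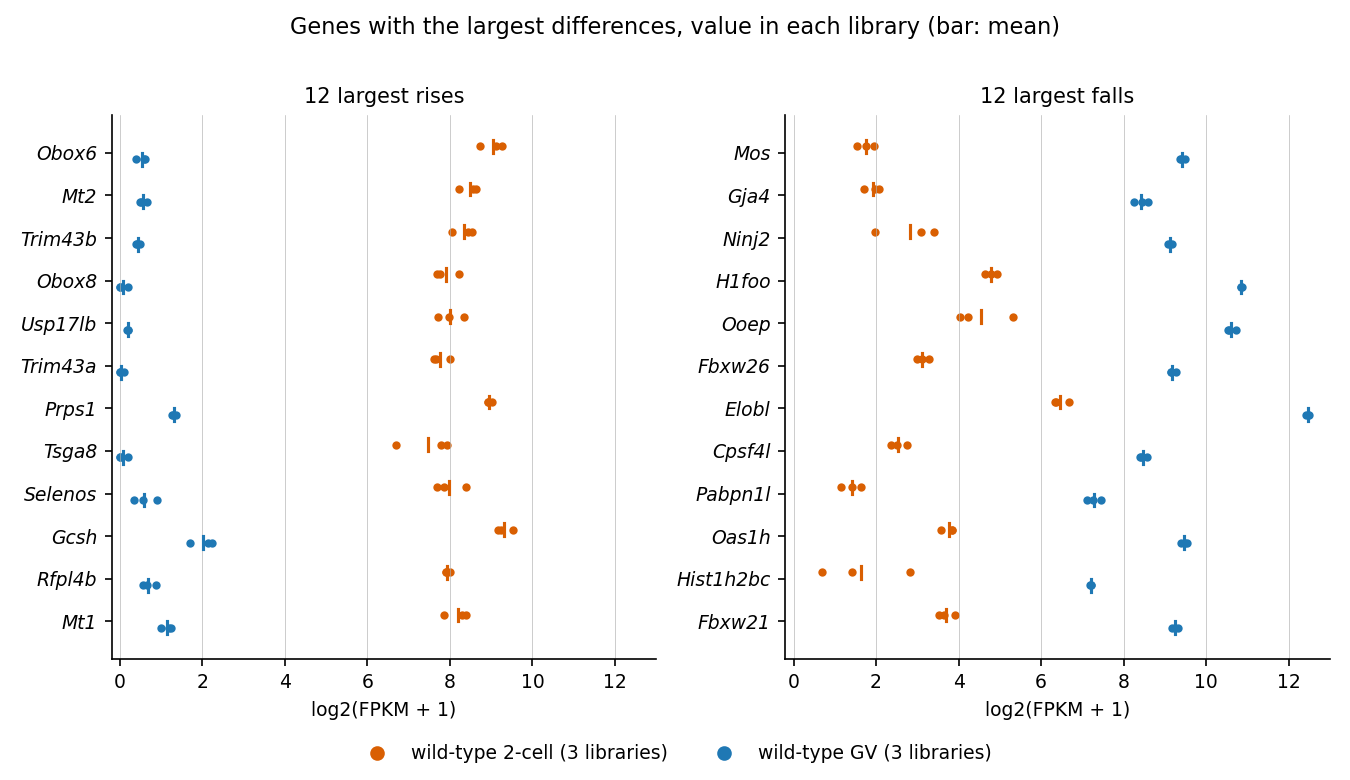
Level of the 12 genes with the largest rises (left) and the 12 with the largest falls (right) in each wild-type 2-cell library (orange) and GV library (blue), as log2(FPKM + 1), with a bar at the mean of 3. The colours are apart in every row, and in the right panel the 2-cell points of H1foo, Ooep and Elobl stay above the rest.

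Of 31 tested members of 2-cell-specific gene families, 27 rose and 3 fell (median 4.87), beside 41.0 and 32.8% of all genes. The list was drawn from genes known for this stage. The 6 Zscan4 genes, which act in telomere upkeep and mark the 2-cell state, rose to between 33.1 FPKM (Zscan4e) and 345 FPKM (Zscan4f), against 0.463 to 8.31 FPKM at GV. Zfp352, a retroposed zinc finger gene, differed by 6.18 (SE 0.15, adjusted p = 7.72e-08). Trim43a had 253, 203 and 196 FPKM in the 2-cell libraries, against 0.0700, 0 and 0 FPKM in the GV libraries (log2 difference 7.73, SE 0.16, adjusted p = 6.02e-08). Tdpoz4 averaged 48.4 FPKM, and it, Tdpoz2, Tdpoz3, Usp17la, Pramel6 and Pramel7 were listed at 0 in every GV library. The fallers were Tcstv1, Arg2 and Rnf32, of which Arg2 (arginase II) kept 246 FPKM at the 2-cell stage, against 671 FPKM at GV. Duxf3 (Dux), an activator of many of these genes, was under the filter, at 0.0222 FPKM at the 2-cell stage and 0 FPKM at GV. Trim43, Usp17l, Zscan4, Tdpoz and Obox copies are close in sequence, so the split of reads among them is uncertain and the level of the family is firmer than that of a copy.

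Factors of the embryo's own programme rose more often than they fell: of 24 tested embryonic transcription factors 15 rose and 3 fell (median 1.28). Gabpa, an ETS-family activator, had 139.9, 104 and 92.1 FPKM in the 2-cell libraries, against 0.200, 0.299 and 0.295 FPKM in the GV libraries (log2 difference 6.46, SE 0.19, adjusted p = 2.09e-07). Klf5, a factor of the first lineages, had 23.1, 24.1 and 16.02 FPKM in the 2-cell libraries, against 0.0542, 0.0163 and 0.0308 FPKM in the GV libraries (log2 difference 4.39, SE 0.19, adjusted p = 9.67e-07), and Klf4 averaged 10.9 FPKM at the 2-cell stage and 0.696 FPKM at GV. The stages were far apart in both genes listed in full. Zfp42 (Rex1) and Dppa4 rose to 21.5 and 121 FPKM, against 0.237 and 15.1 FPKM at GV. Nr5a2, a nuclear receptor active at this stage, averaged 8.77 FPKM at the 2-cell stage and 1.89 FPKM at GV (log2 difference 1.73, adjusted p = 0.000152). Pou5f1 (Oct4), Klf17 and Dppa2 were present at both stages and not called, Pou5f1 at 26.4 FPKM at the 2-cell stage and 25.6 FPKM at GV. Esrrb fell (log2 difference -3.29, adjusted p = 4.15e-06). Nanog, Cdx2 and Gata6, genes of later lineages, stayed under the filter, with 0.171, 0.416 and 0.374 FPKM at the 2-cell stage.

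The start regions of 6 genes are shown here, Rpsa being a ribosomal protein described further on, because they carry letters that known factors of either stage read. Windows run from 250 bases before to 50 after the RefSeq gene start on build GRCm38.p6, all on the plus strand, written 5′ to 3′ with the match in capitals. Trim43a (chr9:88580641-88580940), Zfp352 (chr4:90218570-90218869) and Prps1 (chrX:140456353-140456652) hold GGATTA, the letters read by OBOX, OTX and CRX homeodomains, or its reverse complement TAATCC. Gabpa (chr16:84834874-84835173) and Rpsa (chr9:120127516-120127815) hold CCGGAAG, the ETS letters that GABPA reads, as CTTCCGG, and Zp3 (chr5:135979855-135980154) holds CACCTG, an E-box of the kind FIGLA reads, as CAGGTG. The first 4 genes rose, Rpsa was low at MII and PN5 and present at both ends, and Zp3 fell.
Trim43a: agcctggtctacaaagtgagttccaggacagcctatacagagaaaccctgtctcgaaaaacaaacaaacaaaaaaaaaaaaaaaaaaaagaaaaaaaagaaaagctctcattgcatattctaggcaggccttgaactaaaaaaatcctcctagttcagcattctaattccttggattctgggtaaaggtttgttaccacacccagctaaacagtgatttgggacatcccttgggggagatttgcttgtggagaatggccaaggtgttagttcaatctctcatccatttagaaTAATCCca
Zfp352: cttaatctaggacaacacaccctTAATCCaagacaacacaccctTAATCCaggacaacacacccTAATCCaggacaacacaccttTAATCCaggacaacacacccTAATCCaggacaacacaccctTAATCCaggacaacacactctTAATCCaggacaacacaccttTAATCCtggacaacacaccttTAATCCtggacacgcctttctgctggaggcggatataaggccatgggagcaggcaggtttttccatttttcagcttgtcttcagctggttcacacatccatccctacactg
Prps1: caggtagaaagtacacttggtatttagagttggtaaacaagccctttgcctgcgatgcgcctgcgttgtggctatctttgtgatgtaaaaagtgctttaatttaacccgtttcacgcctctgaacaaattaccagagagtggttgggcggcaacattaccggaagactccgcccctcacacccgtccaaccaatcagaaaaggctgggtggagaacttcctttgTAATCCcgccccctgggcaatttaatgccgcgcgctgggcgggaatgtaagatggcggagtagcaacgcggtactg
Gabpa: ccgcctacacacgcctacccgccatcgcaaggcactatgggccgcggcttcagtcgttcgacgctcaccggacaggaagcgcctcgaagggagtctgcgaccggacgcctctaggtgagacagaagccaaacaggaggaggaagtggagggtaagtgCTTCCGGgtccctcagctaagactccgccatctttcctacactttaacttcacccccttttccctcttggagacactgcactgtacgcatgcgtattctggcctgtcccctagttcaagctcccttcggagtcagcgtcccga
Rpsa: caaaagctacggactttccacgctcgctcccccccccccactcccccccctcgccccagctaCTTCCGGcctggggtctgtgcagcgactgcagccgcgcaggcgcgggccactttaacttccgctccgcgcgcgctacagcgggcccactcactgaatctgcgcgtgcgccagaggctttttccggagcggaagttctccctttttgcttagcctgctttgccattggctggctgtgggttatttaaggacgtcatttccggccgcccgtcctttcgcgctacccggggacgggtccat
Zp3: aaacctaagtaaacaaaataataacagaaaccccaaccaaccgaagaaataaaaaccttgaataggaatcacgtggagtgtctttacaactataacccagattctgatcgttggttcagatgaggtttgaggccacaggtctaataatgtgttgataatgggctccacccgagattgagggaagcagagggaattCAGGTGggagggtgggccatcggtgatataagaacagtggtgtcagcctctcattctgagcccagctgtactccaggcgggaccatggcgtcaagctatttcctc
The Zfp352 window holds TAATCC 9 times in a short repeat, and the other 5 windows hold their match once. Only the motif named for a window is in capitals, and the Prps1 window also holds CCGGAAG. On either strand GGATTA occurs in 6.43% of 17381 windows of this length, CCGGAAG in 12.1% and CACCTG in 19.99%. Motif shares counted by stage are not compared here, because too few of the genes had a window. A window was matched for 44.5% of the genes present at the 2-cell stage and under 1 FPKM at GV. For those at both stages it was 54.3%, and 80% was needed. A match describes these letters and shows neither binding nor a cause of the change.

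Of 61 tested genes of RNA polymerase I and ribosome assembly, which make the ribosome, 36 rose (59.0%) and 9 fell (14.8%), against 41.0 and 32.8% of all tested genes (median 0.82). Nop16, a nucleolar assembly factor, had 126, 99.8 and 79.4 FPKM in the 2-cell libraries, against 0.105, 0.565 and 0.536 FPKM in the GV libraries (log2 difference 6.19, SE 0.23, adjusted p = 4.87e-07). Polr1c and Polr1e, subunits of polymerase I, averaged 74.3 and 44.8 FPKM at the 2-cell stage and 4.07 and 7.27 FPKM at GV (adjusted p 2.72e-06 and 1.1e-05). Rrs1 and Nop2 rose to 19.5 and 27.0 FPKM, against 0.358 and 0.802 FPKM at GV. Taf1a, a promoter factor of polymerase I, fell (log2 difference -1.75, adjusted p = 0.000121).

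Of 26 tested genes of nucleotide synthesis 13 rose and 7 fell (26.9%), shares not far from the 41.0 and 32.8% of all tested genes (median 0.70). Ppat, the first step of purine synthesis, had 50.5, 34.2 and 36.9 FPKM in the 2-cell libraries, against 0.192, 0.195 and 0.184 FPKM in the GV libraries (log2 difference 5.10, SE 0.19, adjusted p = 4.77e-07). Adsl, Gart and Impdh2, further purine steps, rose as well, Adsl to 14.03 FPKM, against 2.34 FPKM at GV. Shmt1 and Nme2 averaged 32.8 and 50.4 FPKM at the 2-cell stage and 0.634 and 0.358 FPKM at GV. Tyms, which makes the thymine nucleotide, had 3.57, 3.22 and 3.07 FPKM in the 2-cell libraries, against 24.3, 24.05 and 26.9 FPKM in the GV libraries (log2 difference -2.61, SE 0.15, adjusted p = 2.8e-06), and Tk1 and Ctps also fell. Summed over all 30 listed genes the level was 1078 to 1260.4 FPKM in 2-cell libraries and 462 to 493 FPKM in GV libraries, and Prps1 alone held 496 FPKM of the 2-cell mean.

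Of 22 tested genes of glycolysis and pyruvate use 12 rose (54.5%) and 4 fell (18.2%), and the lactate dehydrogenases moved in opposite directions (median 0.75). Ldhb, among the 10 most abundant nuclear coding RNAs of the GV oocyte, had 139, 222 and 162 FPKM in the 2-cell libraries, against 3174, 2477 and 3069 FPKM in the GV libraries (log2 difference -4.07, SE 0.20, adjusted p = 1.55e-06). Ldha rose from under 1 FPKM, with 7.02 FPKM at the 2-cell stage and 0.924 FPKM at GV (log2 difference 2.06, adjusted p = 8.19e-05), so Ldhb stayed the more abundant form at both stages. The pyruvate carriers Mpc1 and Mpc2 and the lactate carrier Slc16a1 rose, Slc16a1 to 15.9 FPKM, against 3.55 FPKM at GV.

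Of 20 tested meiotic genes 9 rose and 5 fell (median 0.34), shares near the 41.0 and 32.8% of all tested genes. Sycp3, a part of the lateral element of the synaptonemal complex, had 433, 273 and 399 FPKM in the 2-cell libraries, against 22.1, 30.7 and 29.2 FPKM in the GV libraries (log2 difference 3.69, SE 0.21, adjusted p = 3.53e-06). Hormad1, which marks unpaired chromosome axes, had 41.7, 39.6 and 69.4 FPKM in the 2-cell libraries, against 0.811, 0.230 and 1.02 FPKM in the GV libraries (log2 difference 4.91, SE 0.28, adjusted p = 3.23e-06). Sycp1, Meioc and Tex11 rose too, to 65.9, 10.8 and 48.0 FPKM, against 9.44, 0.107 and 19.6 FPKM at GV. These genes act earlier in meiotic prophase than the GV arrest. With Mos, the arrest gene Fbxo43 and the germline kinase Aurkc fell (log2 difference -2.11, adjusted p = 6.81e-06). The fall of Fbxo43 was lost without GV replicate 1 (adjusted p = 0.0516) or 2 (0.0547) and without the filter on low values (0.0541).

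Several families held members of both kinds. The families described here were picked after their values were seen, and their counts are descriptions. Of 7 Obox genes Obox3, Obox6 and Obox8 rose and Obox1, Obox2 and Obox7 fell. Obox2, one of the most abundant RNAs of the GV oocyte, had 105, 133 and 168 FPKM in the 2-cell libraries, against 3491, 3099 and 3385 FPKM in the GV libraries (log2 difference -4.63, SE 0.18, adjusted p = 5.9e-07). Obox5 was not called and its libraries overlapped, at 274, 727 and 539 FPKM in the 2-cell libraries, against 1348, 577 and 634 FPKM in the GV libraries (adjusted p = 0.153). Together the family summed to 1651 FPKM at the 2-cell stage and 5532 FPKM at GV. In the Oog and Prame family of leucine-rich repeat genes 8 of 13 tested rose and 4 fell. Oog3, the second most abundant nuclear coding RNA at the 2-cell stage, had 3285, 3953 and 3759 FPKM in the 2-cell libraries, against 1630.5, 1666 and 1858 FPKM in the GV libraries (log2 difference 1.09, SE 0.13, adjusted p = 0.000107), while Oog2 and Oog4 fell (-2.90 and -3.62) and Pramel5, Pramel6, Pramel7 and Pramef6 were listed at 0 in all GV libraries. Oog3 already averaged 4327 FPKM at MII and 5155 FPKM at PN5, above its 2-cell level.

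Most tested genes of the F-box family Fbxw, taken by gene name, and all of the Oas1 family fell. Of 19 tested Fbxw genes 16 fell and 2 rose, and the family summed to 942 FPKM at the 2-cell stage and 11885 FPKM at GV. Of the fallers 14 lie on chromosome 9, where Fbxw24, the most abundant, averaged 397 FPKM at the 2-cell stage and 3247 FPKM at GV (log2 difference -3.04, adjusted p = 9.18e-07). Fbxw4, on chromosome 19, was not called, at 33.5 FPKM at the 2-cell stage and 33.2 FPKM at GV. Fbxw2 and Fbxw11, which rose, lie on chromosomes 2 and 11. Where copies are similar, reads may be shared between them, so the chromosome 9 falls may not be separate results. All 5 tested Oas1 genes, relatives of the interferon-induced 2′-5′ oligoadenylate synthetase, fell, Oas1h to 12.6 FPKM, against 709 FPKM at GV. In the Tcl1 family, whose founder is a cofactor of the kinase AKT, 3 rose, 1 fell and 2 were not called. Tcl1b1 and Tcl1b3 were among the 10 most abundant nuclear coding RNAs at the 2-cell stage and not at GV, Tcl1b3 with 1214 FPKM at the 2-cell stage and 538 FPKM at GV (log2 difference 1.15, adjusted p = 0.00054). Tcl1b3 already averaged 1225 FPKM at MII and 1650 FPKM at PN5.

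The alpha-globins appeared without the beta-globins. Hba-a1 had 74.8, 46.0 and 42.8 FPKM and Hba-a2 29.1, 18.9 and 18.1 FPKM in the 2-cell libraries, and both were listed at 0 in all GV libraries (adjusted p 6.44e-07 and 1.29e-06). Hbb-bs, Hbb-bt, Hbb-y, Hbb-bh1, Hbb-bh2 and Hba-x were at 0 in all 6 libraries. Epcam, an epithelial adhesion gene, had 105, 71.5 and 54.1 FPKM in the 2-cell libraries, against 0.373, 0.623 and 0.432 FPKM in the GV libraries (log2 difference 5.67, SE 0.25, adjusted p = 9.57e-07). The metallothioneins Mt1 and Mt2 rose with Mt4, which was present at both stages at 39.4 FPKM at the 2-cell stage and 20.8 FPKM at GV (log2 difference 0.89, adjusted p = 0.00109), and Mt3 was under the filter. Tnfaip6 and Amhr2, listed as cumulus and granulosa markers, also rose, Tnfaip6 to 27.4, 15.6 and 32.6 FPKM, against 0.225, 0 and 0 FPKM at GV. Inha and Cyp19a1 of the same list fell, Inha to 0 in every 2-cell library, against 2.94, 6.29 and 2.51 FPKM at GV.

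Many proteins have one gene for the germline and another for most cells. Among 23 pairs listed under these 2 labels, 19 had both genes tested. The labels are those of the list, and expression in other tissues was not examined. Some oocyte forms were the lower of the pair at GV, as Taf4b at 1.87 FPKM beside Taf4 at 5.25 FPKM. The oocyte form fell in 12, rose in 3 and was not called in 4, and the widely expressed form rose in 11, fell in 4 and was not called in 4. Of all tested genes 41.0% rose and 32.8% fell, so some such calls would be met in any genes. The pairs were not tested as a set. In 6 pairs the oocyte form fell while the other rose, and in 2 both fell. Over the alternatives these counts were 5 to 8 and 0 to 5. Of the pairs in which both fell, Kpna7 and Kpna2 lost the fall of Kpna2 after median-of-ratios scaling (adjusted p = 0.0548) and without any one library other than 2-cell replicate 1 (0.0589 to 0.115). Bcl2l10 and Bcl2l1 lost the fall of Bcl2l1 without GV replicate 2 (adjusted p = 0.0897) and with all 24 libraries in one fit (0.275). The oocyte form was the higher of the pair in 7 at the 2-cell stage and in 12 at GV. The sharpest exchange was in nuclear poly(A)-binding protein. Pabpn1l, which also serves the clearance of maternal RNA, had 1.23, 2.11 and 1.69 FPKM in the 2-cell libraries, against 137, 175 and 152 FPKM in the GV libraries (log2 difference -5.87, SE 0.18, adjusted p = 2.57e-07). Pabpn1 had 119, 103 and 83.4 FPKM in the 2-cell libraries, against 2.35, 1.90 and 1.70 FPKM in the GV libraries (log2 difference 5.10, SE 0.18, adjusted p = 4.55e-07). Neither gene overlapped between stages, and the order within the pair turned round. The cytoplasmic pair did the same at a lower level, with Pabpc1l at 1.15 FPKM at the 2-cell stage and 24.6 FPKM at GV and Pabpc1 at 14.3 FPKM at the 2-cell stage and 1.42 FPKM at GV (log2 difference -3.57, adjusted p = 2.03e-06 and log2 difference 2.72, adjusted p = 4.06e-05).

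The Aurora kinases Aurkc and Aurkb, the Y-box proteins Ybx2 and Ybx1, the granule proteins Lsm14b and Lsm14a and the deadenylases Cnot6l and Cnot6 were the other pairs in which the oocyte form fell and its counterpart rose. Aurkc averaged 23.2 FPKM at the 2-cell stage and 103 FPKM at GV and Aurkb 11.4 FPKM at the 2-cell stage and 3.21 FPKM at GV, so Aurkc stayed the higher. The cap-binding pair differed in another way: Eif4e1b stood at 4.47 FPKM at the 2-cell stage and 4.41 FPKM at GV without a call, and Eif4e rose slightly, with 135 FPKM at the 2-cell stage and 100.3 FPKM at GV (log2 difference 0.42, adjusted p = 0.0133). The inhibitory kinase pair rose in both members, Wee2 to 232 FPKM, against 158 FPKM at GV, and Wee1 to 12.1 FPKM, against 3.80 FPKM at GV. The calls of Wee2 and Eif4e were lost at equal sums (adjusted p = 0.463 and 0.660) and without GV replicate 1 (0.0629 and 0.0593) or 2 (0.0577 and 0.0608), and that of Wee2 also without GV replicate 3 (0.0603). Cnot6l lost its call after median-of-ratios scaling (adjusted p = 0.0682), without the filter on low values (0.0805) and without any one of the GV replicates (0.0840 to 0.104), Lsm14a at equal sums (0.0598) and Lsm14b with all 24 libraries in one fit (0.0715). In the BTG pair Btg4 was not called, as given above, while Btg1 rose, with 41.0 FPKM at the 2-cell stage and 4.30 FPKM at GV (log2 difference 3.01, adjusted p = 4.57e-06). H1foo fell with no called change in the somatic linker histone H1f0, which averaged 14.2 FPKM at the 2-cell stage and 18.3 FPKM at GV (log2 difference -0.41, adjusted p = 0.184), although it was called as a fall without 2-cell replicate 2 (adjusted p = 0.0173).

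**Figure D3:**
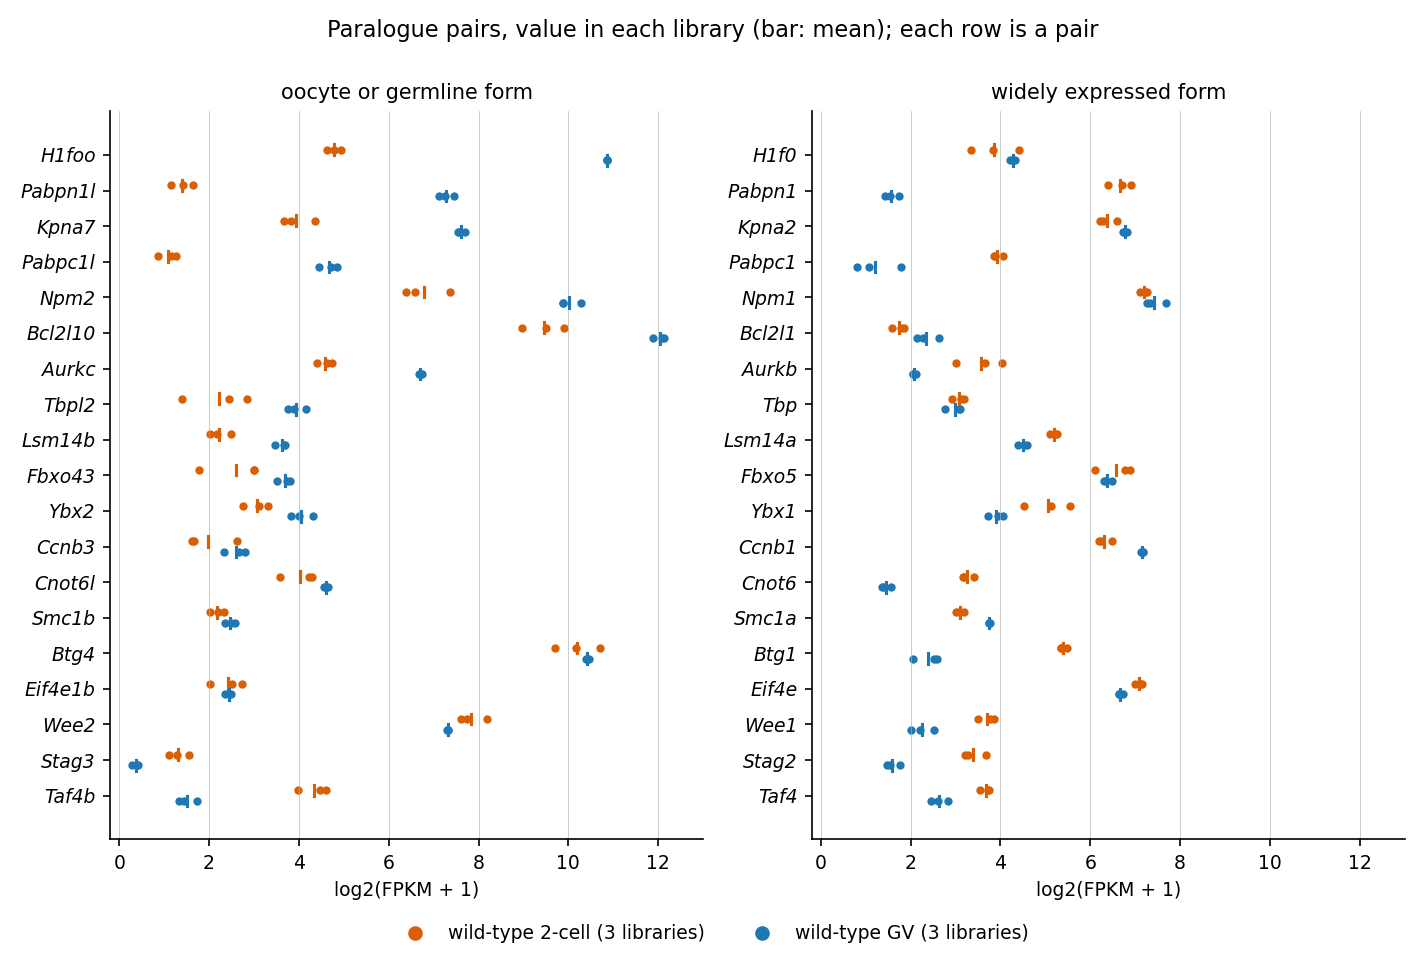
Level of both members of 19 paralogue pairs in each wild-type 2-cell library (orange) and GV library (blue), as log2(FPKM + 1), with the oocyte or germline form on the left, the widely expressed form on the right and a pair in each row, ordered by the log2 difference of the oocyte form. From H1foo to Cnot6l the oocyte forms of called pairs sit to the left of their GV level, and Pabpn1, Pabpc1 and Btg1 sit well to the right of theirs.

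A large set of genes was found at both stages. All 6 libraries reached 5 FPKM in 3790 genes, which took 80.4% of the summed FPKM at the 2-cell stage and 84.0% at GV. Of these 1137 rose, 1490 fell and 1163 were not called. Genes at 5 FPKM or more in every 2-cell library and under 1 FPKM in every GV library numbered 728 and took 6.80 ± 0.93% of the summed FPKM at the 2-cell stage (SD, n = 3). The reverse class held 147 genes and took 0.503 ± 0.012% at GV. The thresholds are a choice, and other thresholds are given with the processing.

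In 1298 of the genes at both stages the level held, in the sense that the 95% interval of the log2 difference lay within -1 and 1. Dppa3 (Stella), which protects the maternal genome from demethylation, was the most abundant nuclear coding RNA at both stages and had 4788, 4892 and 6230.3 FPKM in the 2-cell libraries, against 6631, 6629 and 6356 FPKM in the GV libraries (log2 difference -0.31, SE 0.14, adjusted p = 0.0681). It was called as a fall at equal sums (adjusted p = 0.000290), without 2-cell replicate 3 (0.00282) and after removal of the length trend (0.0382). Spin1, a histone reader of the oocyte, averaged 529 FPKM at the 2-cell stage and 644 FPKM at GV and was called as a fall at equal sums (adjusted p = 0.0164). Calm2, a calmodulin gene, averaged 676 FPKM at the 2-cell stage and 466 FPKM at GV. Of the 1298 genes 300 were nonetheless called, Calm2 among them as a rise (log2 difference 0.53, adjusted p = 0.00356) that was lost at equal sums (adjusted p = 0.136) and with all 24 libraries in one fit (0.106). Calm2 stood at 9.93 FPKM at MII and 32.8 FPKM at PN5, so a level within these limits at both ends was not always kept in between. Others stood higher in between, Spin1 at 1337 FPKM at MII and 1444 FPKM at PN5 and Btg4 at 2741 and 3489 FPKM. Dppa3 averaged 5766 FPKM at MII and 11706 FPKM at PN5. Timm8b, also held, moved less, at 423, 358, 564 and 555 FPKM at GV, MII, PN5 and 2-cell. Whether these were changes of RNA amount or of capture was not tested. Among the 10 most abundant nuclear coding RNAs only Dppa3 and Ubb were shared by the stages. The 2-cell list held Oog3, Omt2b, Omt2a, Tcl1b1, Btg4, Tcl1b3, Cks2 and Oosp1. At GV it held Elobl, Bcl2l10, Sap18b, Obox2, Fbxw24, Ldhb, Zp3 and Nlrp14. Omt2a and Omt2b, maturation genes of the oocyte, rose, Omt2b to 1948 FPKM, against 423 FPKM at GV. Both were above GV before the 2-cell stage, Omt2b at 884 FPKM at MII and 1606 FPKM at PN5, Omt2a at 625 and 1127 FPKM. Bcl2l10, a BCL2 relative of the oocyte, fell to 725 FPKM, against 4192 FPKM at GV (log2 difference -2.58, adjusted p = 2.59e-05).

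A dip in level between the 2 ends was common, and whether it was RNA lost or RNA captured less well was not tested. In 760 of the 3790 genes every MII and PN5 library lay more than 2-fold below the lowest of the 6 libraries of the comparison, and 329 of these were among the 1298 genes whose level held. The cytosolic ribosomal proteins were the clearest case: 38 of the 79 listed genes met this rule, of 45 that were present at both stages. Their list summed to 2448, 2328 and 2336 FPKM in the GV libraries, 221, 224 and 206 FPKM at MII, 341, 317 and 257 FPKM at PN5 and 2702, 2194 and 2402 FPKM in the 2-cell libraries. GV and 2-cell sums overlapped, and all MII and PN5 sums were far below them. Of 75 tested members 23 rose and 18 fell between GV and the 2-cell stage, with a median of 0.07 that turned to -0.22 when libraries were scaled to the same sum. Rpsa, a protein of the small subunit, stood at 12.9 FPKM at GV, 0.137 FPKM at MII, 0.111 FPKM at PN5 and 19.8 FPKM at the 2-cell stage (log2 difference 0.56, SE 0.18, adjusted p = 0.0243). Its rise over GV was lost at equal sums (adjusted p = 0.298) and without any one of the GV replicates (0.0631 to 0.0756). Rps19 likewise stood at 8.10, 0.0614, 0.102 and 17.5 FPKM at GV, MII, PN5 and 2-cell. Rpl17 broke from the group, with 9.95, 17.5 and 18.9 FPKM in the 2-cell libraries, against 149.8, 150.1 and 159 FPKM in the GV libraries (log2 difference -3.27, SE 0.23, adjusted p = 9.19e-06). Outside the ribosome, Med29 of the Mediator and Mdh2 of the citric acid cycle dipped, Mdh2 through 43.6, 0.706, 1.21 and 77.6 FPKM over the same 4 stages. Many ribosomal protein genes have processed pseudogenes, and reads shared with them make single members uncertain.

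**Figure D4:**
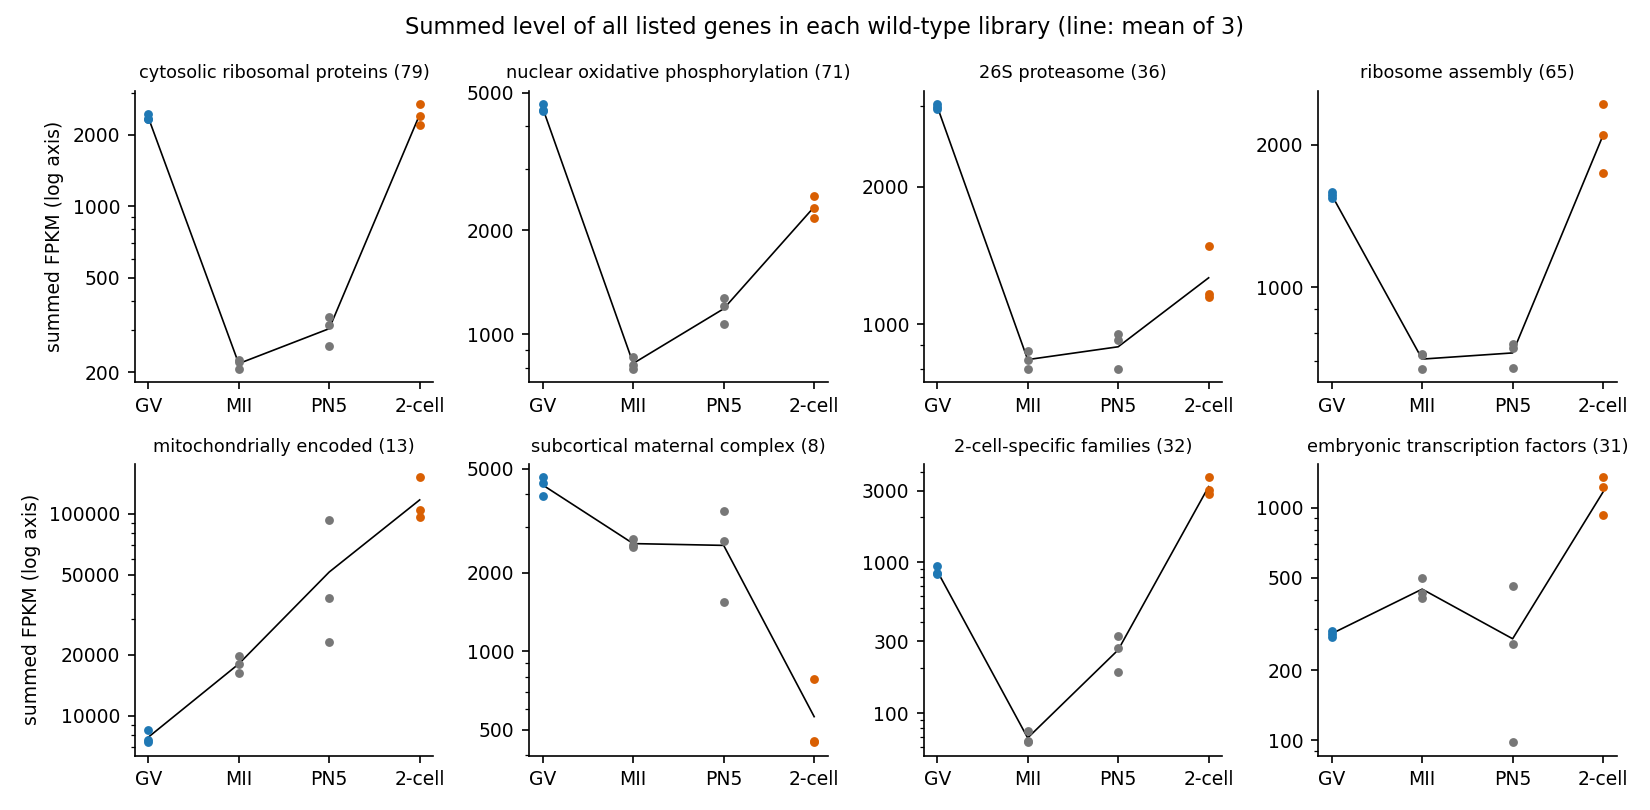
Summed FPKM of all listed members of 8 gene lists (number listed in brackets) in each of 3 wild-type libraries at GV, MII, PN5 and 2-cell, on log axes with a line through the means. Ribosomal proteins drop at MII and PN5 and stand at 2-cell where they stood at GV, the subcortical maternal complex runs down to its lowest sums at 2-cell, and the mitochondrially encoded genes climb to 95882 to 151596 FPKM at 2-cell, against 7367 to 8463 FPKM at GV.

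Most respiratory chain genes of the nucleus fell, while those of the mitochondrial genome rose. Of 71 nuclear genes of oxidative phosphorylation, all tested, 55 fell and 6 rose (median -1.22). The fall was not steady: their sum averaged 4510 FPKM at GV, 822 FPKM at MII, 1184 FPKM at PN5 and 2334 FPKM at 2-cell. Of the 46 present at both stages 23 met the rule for a dip, beside 20.1% of all genes present at both stages. Ndufa8, a subunit of complex I, had 14.2, 7.42 and 10.3 FPKM in the 2-cell libraries, against 289.8, 301 and 292 FPKM in the GV libraries (log2 difference -4.70, SE 0.22, adjusted p = 1.19e-06). Uqcrc2 of complex III and Sdhd of complex II averaged 13.4 and 20.8 FPKM at the 2-cell stage and 110.0 and 303 FPKM at GV (log2 differences -2.95 and -3.91). Cox8a and Uqcrc1 were among the 6 that rose, Cox8a to 502 FPKM, against 131 FPKM at GV. All 13 protein genes of the mitochondrial genome rose (median 3.93). mt-Cytb had 25093, 25212 and 36932 FPKM in the 2-cell libraries, against 1609.5, 1520.2 and 1433 FPKM in the GV libraries (log2 difference 4.23, SE 0.17, adjusted p = 7.12e-07). mt-Nd5 averaged 213 FPKM at GV, 578 FPKM at MII, 1238 FPKM at PN5 and 2938 FPKM at 2-cell. PN5 was uneven: the 13 genes summed to 92823, 38218 and 23245 FPKM in its libraries. The lowest 2-cell sum was 95882 FPKM and the highest MII sum 19836 FPKM. The 26S proteasome fell too, in 24 of 36 genes with 7 rises (median -0.94). Its sum averaged 2993, 838, 893 and 1264 FPKM at GV, MII, PN5 and 2-cell, and 10 of the 30 genes present at both stages dipped. Psma7, a subunit of the core ring, had 21.5, 22.4 and 22.0 FPKM in the 2-cell libraries, against 206, 210.3 and 201 FPKM in the GV libraries (log2 difference -3.17, SE 0.12, adjusted p = 5.03e-07), whereas Psme4, an activator cap, rose, with 35.9 FPKM at the 2-cell stage and 11.5 FPKM at GV (log2 difference 1.54, adjusted p = 0.000148).

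The housekeeping lists that follow had medians near 0 and shares of rises and falls near the 41.0 and 32.8% of all tested genes, or below them where more genes were not called. Of 56 tested spliceosome genes 22 rose and 22 fell (39.3% each, median -0.26), Cdc5l rising to 23.1 FPKM, against 0.537 FPKM at GV, and Lsm3 falling to 9.05 FPKM, against 125 FPKM at GV. Of 33 tested genes of RNA polymerase II and its general factors 12 rose and 8 fell (median 0.20, or -0.13 at equal sums). Polr2d and Polr2h, both subunits, went opposite ways, with 219 and 65.3 FPKM at the 2-cell stage and 1014 and 4.90 FPKM at GV (adjusted p 1.94e-06 and 2.02e-06). Of 43 initiation factors of translation 19 rose and 15 fell (median 0.27, or -0.07 at equal sums). Eif1a rose and Eif1ax, its X-linked relative, fell: Eif1a averaged 7.98 FPKM at the 2-cell stage and 0.345 FPKM at GV and Eif1ax 28.2 FPKM at the 2-cell stage and 130.1 FPKM at GV. Of 30 heat shock proteins and chaperonins 9 rose and 7 fell (median 0.11, or -0.23 at equal sums), with Cct6a up and Cct5 down in the same chaperonin ring (3.47 and -1.95).

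Regulators of the cell cycle were among the called genes in both directions. Of 41 tested genes of DNA replication 9 rose and 14 fell (median 0.03, or -0.25 at equal sums, -0.0043 without 2-cell replicate 1 and -0.09 without 2-cell replicate 2), and of 32 mitotic genes 10 rose and 15 fell (median -0.31). Ccne1 (cyclin E1), which starts S phase, had 76.7, 80.5 and 43.5 FPKM in the 2-cell libraries, against 1.08, 1.18 and 0.787 FPKM in the GV libraries (log2 difference 5.03, SE 0.25, adjusted p = 1.82e-06). Cdc25c, an activator of CDK1, averaged 32.5 FPKM at the 2-cell stage and 2.73 FPKM at GV, and Ccna2 (cyclin A2) 56.3 FPKM at the 2-cell stage and 12.7 FPKM at GV (log2 difference 3.17, adjusted p = 1.55e-06 and log2 difference 2.06, adjusted p = 6.91e-06). The CDK inhibitor Cdkn1a (p21) rose from near 0, with 9.34 FPKM at the 2-cell stage and 0.131 FPKM at GV (log2 difference 3.17, adjusted p = 6.99e-06). Bub1b, a protein of the spindle checkpoint, had 7.48, 4.07 and 5.30 FPKM in the 2-cell libraries, against 112, 126 and 126 FPKM in the GV libraries (log2 difference -4.24, SE 0.20, adjusted p = 1.53e-06). Ccnb1 and Ccnb2, the B-type cyclins, fell less, by 0.85 and 2.12 on the log2 scale.

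Of 23 tested histone and chaperone genes 5 rose and 8 fell (median -0.13). Npm2, which unpacks sperm chromatin, averaged 114 FPKM at the 2-cell stage and 1043 FPKM at GV, and the replacement histone H3f3b was not called, at 351 FPKM at the 2-cell stage and 294 FPKM at GV. Of 13 tested genes of DNA methylation and imprint protection 7 fell and 4 rose (median -1.10). Dnmt1, the maintenance methyltransferase, had 4.37, 4.86 and 2.25 FPKM in the 2-cell libraries, against 81.6, 86.8 and 96.8 FPKM in the GV libraries (log2 difference -4.25, SE 0.24, adjusted p = 2.97e-06). Its partner Uhrf1 averaged 3.88 FPKM at the 2-cell stage and 25.7 FPKM at GV, and Uhrf2 rose from near 0, with 2.76 FPKM at the 2-cell stage and 0.153 FPKM at GV (log2 difference -2.47, adjusted p = 1.39e-05 and log2 difference 1.71, adjusted p = 1.57e-05). Of 22 tested germline small-RNA genes 10 fell and 4 rose (median -0.36). Gtsf1 and Tdrd12, of the piRNA pathway, averaged 16.1 and 4.95 FPKM at the 2-cell stage and 324 and 99.1 FPKM at GV. Mael and Fkbp6 were not called, and Piwil2, Ddx4 and Mov10l1 rose, Ddx4 to 32.0 FPKM, against 12.4 FPKM at GV.

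**Figure D5:**
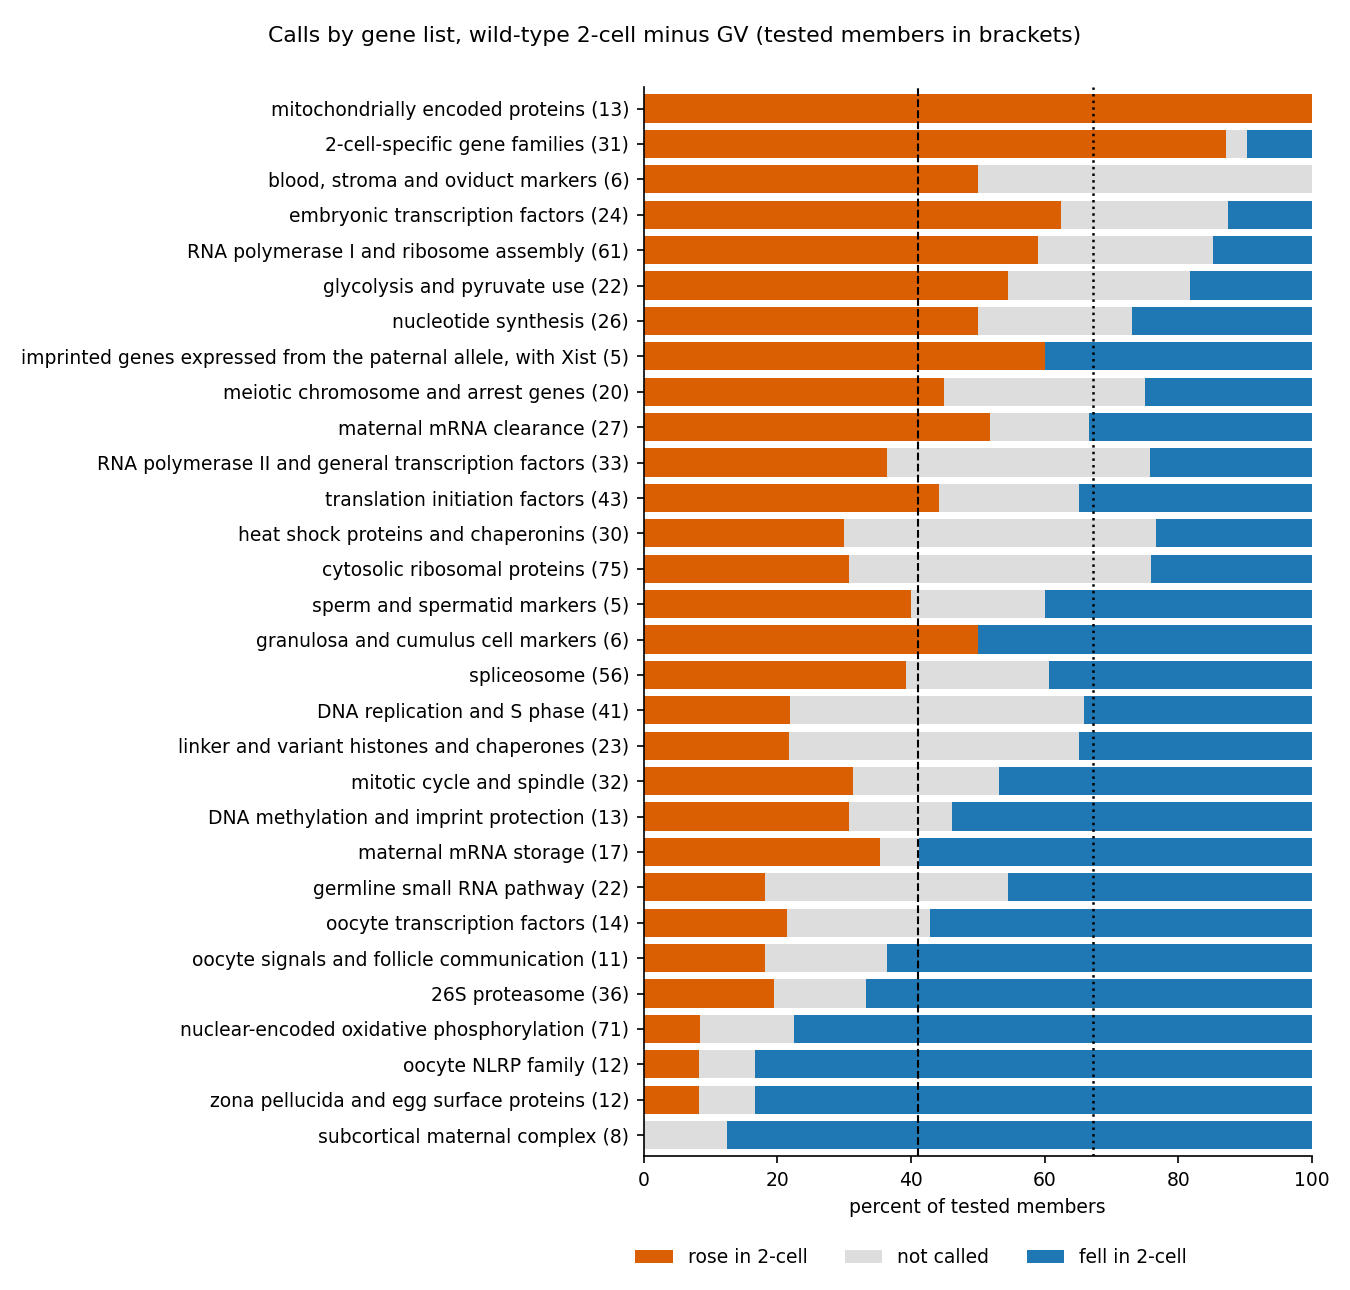
Share of tested members of each gene list that rose in 2-cell embryos (orange, read from the left), fell (blue, read from the right) or were not called (grey), with the number tested in brackets, a dashed line at the 41.0% of all tested genes that rose and a dotted line at the start of the 32.8% that fell. Mitochondrially encoded proteins and 2-cell-specific families stand at the top and the subcortical maternal complex at the bottom.

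The embryo carries a paternal genome that the oocyte lacks. Of 9 Y-linked genes only Eif2s3y passed the filter, at 5.84, 2.01 and 1.09 FPKM in the 2-cell libraries, against 0, 0 and 0.0418 FPKM in the GV libraries (log2 difference 1.79, SE 0.38, adjusted p = 0.00334). The 9 genes summed to 5.41 to 17.2 FPKM in 2-cell libraries and 0.163 to 0.195 FPKM in GV libraries, and each 2-cell pool of 5 embryos lay above every GV pool. Eif2s3y has a close X-linked copy, Eif2s3x, so reads may be shared. Of 26 genes known for expression from the paternal allele, Xist included, 5 were tested. Snrpn, Impact and Usp29 rose and Mest and Plagl1 fell, Snrpn to 20.9 FPKM, against 8.45 FPKM at GV, and the fall of Plagl1 was lost without GV replicate 1 (adjusted p = 0.0509). X-linked genes rose more often than those of any other chromosome. Of 639 tested 322 (50.4%) rose and 160 (25.04%) fell, with a median of 0.61, while on the numbered chromosomes 34.7 to 44.4% rose. Prps1 and Tsga8, among the largest rises, are X-linked. No test was made of the difference between chromosomes, because genes are not replicates.

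The timing of the changes was read from the wild-type MII and PN5 libraries, as a description of levels. Whether a change of level there was one of RNA amount or of how well the RNA was captured was not tested. Of 1169 genes that fell at least 4-fold from a GV mean of at least 5 FPKM, 713 (61.0%) already had every MII library more than 4-fold below the lowest GV library, and 479 had every PN5 library there. In 140 every MII library was at or above the lowest GV library. Zp3 belonged to the early kind, at 2114 FPKM at GV, 85.8 FPKM at MII, 54.2 FPKM at PN5 and 67.1 FPKM at 2-cell. Mos, at 687, 971, 24.96 and 2.38 FPKM over the same stages, held to MII and was low by PN5. Obox2 held to PN5, with 3325, 4262, 4107 and 135 FPKM. Of 1764 genes that rose at least 4-fold to a 2-cell mean of at least 5 FPKM, 1444 had every PN5 library more than 4-fold below the lowest 2-cell library, and 1500 had every MII library there. The share of all tested genes that met these rules was not counted. The GV or 2-cell libraries that chose the genes also set the limits, so part of each count follows from the choice.

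The same comparison in Nlrp14 knockout libraries took another course. Nlrp14 itself had 25.9, 36.2 and 17.2 FPKM in knockout 2-cell libraries and 22.2, 23.7 and 39.2 FPKM in knockout GV libraries, against 1876, 2014 and 1922 FPKM in wild-type GV libraries. The change from GV to 2-cell differed between the genotypes in 6260 of 15844 genes tested (39.5%) by limma's interaction test, with a higher value in knockouts for 1777 (11.2%) and a lower one for 4483 (28.3%). All 12 genes of largest rise in wild type were among those with a lower value, and 9 of the 12 of largest fall among those with a higher value. Obox6 had 106, 21.1 and 44.0 FPKM in knockout 2-cell libraries, against 615, 554 and 427 FPKM in wild-type 2-cell libraries (interaction -3.38, adjusted p = 0.00097). H1foo had 198, 434 and 272 FPKM in knockout 2-cell libraries, against 23.8, 29.5 and 26.6 FPKM in wild-type 2-cell libraries (interaction 3.38, adjusted p = 4.49e-05). In both genes all knockout 2-cell libraries lay between the wild-type 2-cell and GV levels. These genes were chosen for the wild-type change and share its libraries, so part of the direction follows from the choice. Knockout GV replicate 3 stood apart, with a summed FPKM of 456463, against 372963 and 377823 in replicates 1 and 2. Gja4, a large fall without an interaction call (adjusted p = 0.0829), had 87.8 FPKM there, against 396 and 363 FPKM. Without that library 7068 genes were called in the interaction.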

How the data were processed

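Libraries were prepared from 5 oocytes or embryos each (SMART-Seq HT, per the labels' protocols). The authors deposited FPKM values for 55487 Ensembl genes in each library, made with StringTie on build GRCm38, per the submitters' processing notes. The sources used here name no versions, aligner or filters. Symbols and positions came from GENCODE M21, which matched 55227 identifiers. Low values of genes with 1 transcript came in whole steps, which gave the depths stated. A fragment on 1 kb was worth 0.0821 to 0.131 FPKM in the 6 libraries, and depth limits counting error only. No libraries held identical values.

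The 2-cell minus GV difference was tested with limma 3.58.1 in R 4.3.3 on log2(FPKM + 1), with trend and robust settings, keeping genes that reached 1 FPKM in 3 or more of the 6 libraries. Genes with a Benjamini-Hochberg adjusted p under 0.05 were called. The interaction used the 12 libraries of both genotypes at these stages. Scaling, pseudocount, length trend, filters, replicate block, samples fitted and each left-out replicate were varied. Size factors of the median-of-ratios scaling were 0.919 to 1.04. On simulated data with 14503 genes the test recovered 32.8% of genes changed 2-fold, 88.1% changed 4-fold and 92.4% changed 8-fold, with 7 false calls, and made 0 calls with nothing changed. At these folds 67, 67 and 66 genes were changed, all from about 5 FPKM or more at GV. Each gene had the same spread in both stages. In the deposited data 73.8% of genes were called, so these rates do not describe that comparison.

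Named genes were the 12 largest rises and falls among called genes with a mean of at least 5 FPKM and no overlap, the 10 most abundant nuclear coding genes per stage, the 10 most abundant whose level held, the 8 deepest dips, up to 5 genes per list by smallest p, all genes of the pairs and Nlrp14, leaving out predicted genes, Rik genes and pseudogenes. Other genes are named as members of a list or family. The lists, pairs and rules were chosen with earlier results of these data known. Promoter windows were RefSeq's for GRCm38.p6, kept within 1000 bases of the GENCODE start. Summaries and figures used matplotlib 3.10.9, numpy 2.4.6 and pandas 2.3.3 under Python 3.11.15.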

Additional observations from a re-analysis of the deposited data

Results flagged for a closer look

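The genes below were flagged because the change from GV to 2-cell differed between knockout and wild type by limma's interaction test (difference of the log2 differences, knockout minus wild type). Of all 15844 genes tested 39.5% were called in this test, so a call alone marks no gene out. They were chosen for the wild-type change, which the difference subtracts, so part of the direction follows from the choice. Among the 12 largest rises of wild type the values were -3.38 for Obox6, -3.44 for Obox8, -3.37 for Selenos, -2.32 for Trim43b, -2.26 for Gcsh and -2.20 for Trim43a. For Prps1 it was -2.01, for Mt2 -1.83, for Tsga8 -1.73, for Rfpl4b -1.68, for Usp17lb -1.11 and for Mt1 -0.88. Each of these rose by less in knockouts.

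Among the 12 largest falls the differences were 3.39 for Ninj2, 3.38 for H1foo, 2.15 for Cpsf4l, 1.97 for Ooep and 1.66 for Oas1h. For Pabpn1l it was 1.58, for Fbxw26 1.47, for Mos 1.08 and for Elobl 0.91. Each of these fell by less in knockouts. The median of this difference over all 15844 genes tested was -0.27. The sources used here do not say whether knockout and wild-type embryos were collected at the same hour.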

How the results depend on the processing

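No named gene turned direction while called, in the 2-cell minus GV difference as reported or under any setting tried. Uncalled differences near 0 may change sign. For 222 tested named genes, 3306 alternative results were computed, of which 3228 kept their side of the threshold, 57 lost the call and 21 gained one, and 187 of 203 called genes kept their call throughout. The count of called genes was 9781 to 11025 with one library left out (5488 to 6258 rises, 4266 to 4767 falls) and the interaction count 5194 to 7068. It was 5534 (2718 rises, 2816 falls) among genes with a mean of at least 5 FPKM, where fewer genes are tested, and the interaction count was then 3245, 1993 of them lower in knockouts. With 10 FPKM as the threshold for present, 2374 genes were in both stages, 64 at GV only and 389 at 2-cell only. With 3 FPKM there were 277 at GV only and 1157 at 2-cell only. With one library left out the classes held 3829 to 3973 genes in both, 154 to 193 at GV only, 757 to 903 at 2-cell only, 1025 to 1446 held and 774 to 848 with a dip. Fits with a left-out library kept the genes tested. No Y-linked gene passed the 5 FPKM filter, so that list has no value there.

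The replicate numbers of 2-cell and GV libraries did not pair them: deviations of same-numbered libraries correlated at -0.07, 0.14 and 0.03. With the number as a replicate block 10672 genes were called (5926 rises, 4746 falls) and 6270 in the interaction. The settings without 2-cell replicate 1 or 2, equal sums and the 5 FPKM filter turned the sign of some list medians near 0, those of DNA replication, polymerase II, ribosomal proteins, initiation factors, chaperones, and sperm, granulosa and imprinted genes. Scaling to equal sums without mitochondrial genes was added after seeing the data.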

Other observations

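Genes outside the comparison's rules gave values that belong beside it. Of the genes that rose, 4032 were protein-coding and 844 processed pseudogenes, and of those that fell 3386 and 584, while 10006 and 2044 of all tested genes were of these kinds. Processed pseudogenes share sequence with their parents, so their levels are uncertain. The Y-linked signal was uneven across the 2-cell pools, with Eif2s3y at 5.84, 2.01 and 1.09 FPKM.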
